A study of Mus musculus with 2 samples.

Results

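Eph receptors and their ephrin ligands were followed as 9 genes through the embryonic mouse mandible. The 6 receptor genes were Epha4, Epha7, Ephb1, Ephb2, Ephb3 and Ephb4, and the 3 ligand genes were Efna5, Efnb1 and Efnb2. They were chosen by name as the family members to be followed, with earlier results of these data known. Counts of members are therefore descriptions, not independent support. Each gene was a row of both count matrices, which list 27998 genes for E12.0 and 31053 for E9.5. The other 13 Eph and ephrin genes served as the comparison. The study made 2 single cell libraries from embryos of genotype K14Cre;R26mT/mG, with no other treatment. In these embryos Cre recombinase is driven by the keratin 14 promoter and switches a membrane reporter from tdTomato to GFP. The E12.0 library came from GFP-positive epithelial cells of 6 pooled littermates, sorted after the epithelium had been peeled from the mesenchyme, so cells that had not recombined the reporter were left out. The E9.5 library came from unsorted cells of 8 pooled mandibular arches and held epithelium and mesenchyme together.

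Eph receptors form the largest family of receptor tyrosine kinases. Their ephrin ligands sit on the membrane of a neighbouring cell, A-type ephrins through a lipid anchor and B-type ephrins through a transmembrane segment, and binding can signal into both cells. Contact between a receptor cell and a ligand cell commonly makes them withdraw from each other, and this is known to keep cell populations apart at tissue boundaries, for example between hindbrain segments, in neural crest streams and between arteries and veins. EphA receptors mostly bind ephrin-A and EphB receptors mostly bind ephrin-B. EphA4 also binds ephrin-B2 and EphB2 also binds ephrin-A5. In the face, loss of ephrin-B1 in mouse and human disturbs craniofacial development, and EphB2 with EphB3 acts in closure of the palate.

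Of 11663 E12.0 barcodes 11355 were kept and of 14293 E9.5 barcodes 12744 were kept, with medians of 6349 and 13460.5 unique molecular identifiers (UMIs, each counting 1 captured transcript) per cell. The libraries shared 51 barcodes. Levels are given as CPM, the UMIs of a gene summed over the cells of a group and scaled to a common total, with exact 95% intervals. There was 1 library per stage, so no difference between embryos could be tested, no p-value is given, and intervals cover counting error only. A gene met the size rule when it reached 10 CPM in either group and the ratio of CPM was 1.5-fold or more in either direction. The E12.0 cells carried the epithelial markers Epcam at 426 CPM and Cdh1 at 105 CPM, while the mesenchymal gene Twist1 stood at 0.2 CPM and the endothelial genes Cdh5 and Kdr at 0.0 CPM. Snai2, listed as a mesenchymal marker, was found at 66.8 CPM in these E12.0 cells. Not all such genes were near 0. The 6 endothelial markers summed to 10.5 CPM and the 6 mesenchymal markers to 68.2 CPM. A further 4 mesenchymal genes (Col1a1, Col1a2, Col5a1 and Twist2) summed to 69.7 CPM, and the source of these transcripts was not tested.

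The E12.0 epithelium was divided by transcripts of 6 genes, of which the study mapped Timp3, Irx1, Shh, Cxcl14 and Dmrt2 in the tissue. Cells with at least 5 UMIs of Cxcl14 (4415 cells) stood for the epithelium anterior to the tooth (zone A), cells with at least 2 UMIs of Irx1 (672 cells) for the dental zone (zone D) and cells with at least 2 UMIs of Dmrt2 (209 cells) for the epithelium posterior to it (zone P). The study also found Irx1 in parts of the diastema. Cells with at least 2 UMIs of Shh (258 cells) stood for the initiation knot, a signaling center of the tooth bud, although Shh also labels taste bud primordia of the tongue. Timp3 (1951 cells, the same threshold) labels the diastema, the toothless space between incisor and molar, and also periderm over the incisor. Pthlh (175 cells, the same threshold) encodes a parathyroid hormone-like protein. The gates could overlap: 1237 cells passed several of them, 903 of these both Timp3 and Cxcl14, and 4970 cells passed none. Gated cells were somewhat deeper than the library, with gate medians of 6616 to 7964.5 UMIs, and held more cells called as doublets, 8.61% to 12.4% against 5.82% of all cells.

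The 9 genes were not spread evenly over the zones. Epha4 and Epha7 were higher in Irx1 cells, Ephb2 was higher in Cxcl14 cells, Ephb1 in Timp3 and Pthlh cells, and Efnb2 was lower in Irx1 and Shh cells, whereas Ephb3, Ephb4, Efna5 and Efnb1 met the size rule in no gate. In the Timp3 gate 1 member was higher and 1 lower, against 0.33% and 1.12% of all 8777 genes compared. In the Irx1 gate 2 members were higher and 3 lower, against 2.95% and 4.69% of all genes. In the Shh gate 1 member was higher and 3 lower, against 8.63% and 7.08%. In the Cxcl14 gate 1 was higher and 2 lower, against 3.57% and 4.19%. In the Pthlh gate 2 were higher and 0 lower, against 2.94% and 4.25%. In the Dmrt2 gate 1 was higher and 2 lower, against 5.43% and 5.26%. The median log2 ratio of the 9 members lay between -0.50 in the Shh gate and 0.10 in the Pthlh gate, and that of all genes between -0.03 and 0.03.

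**Figure D1:**
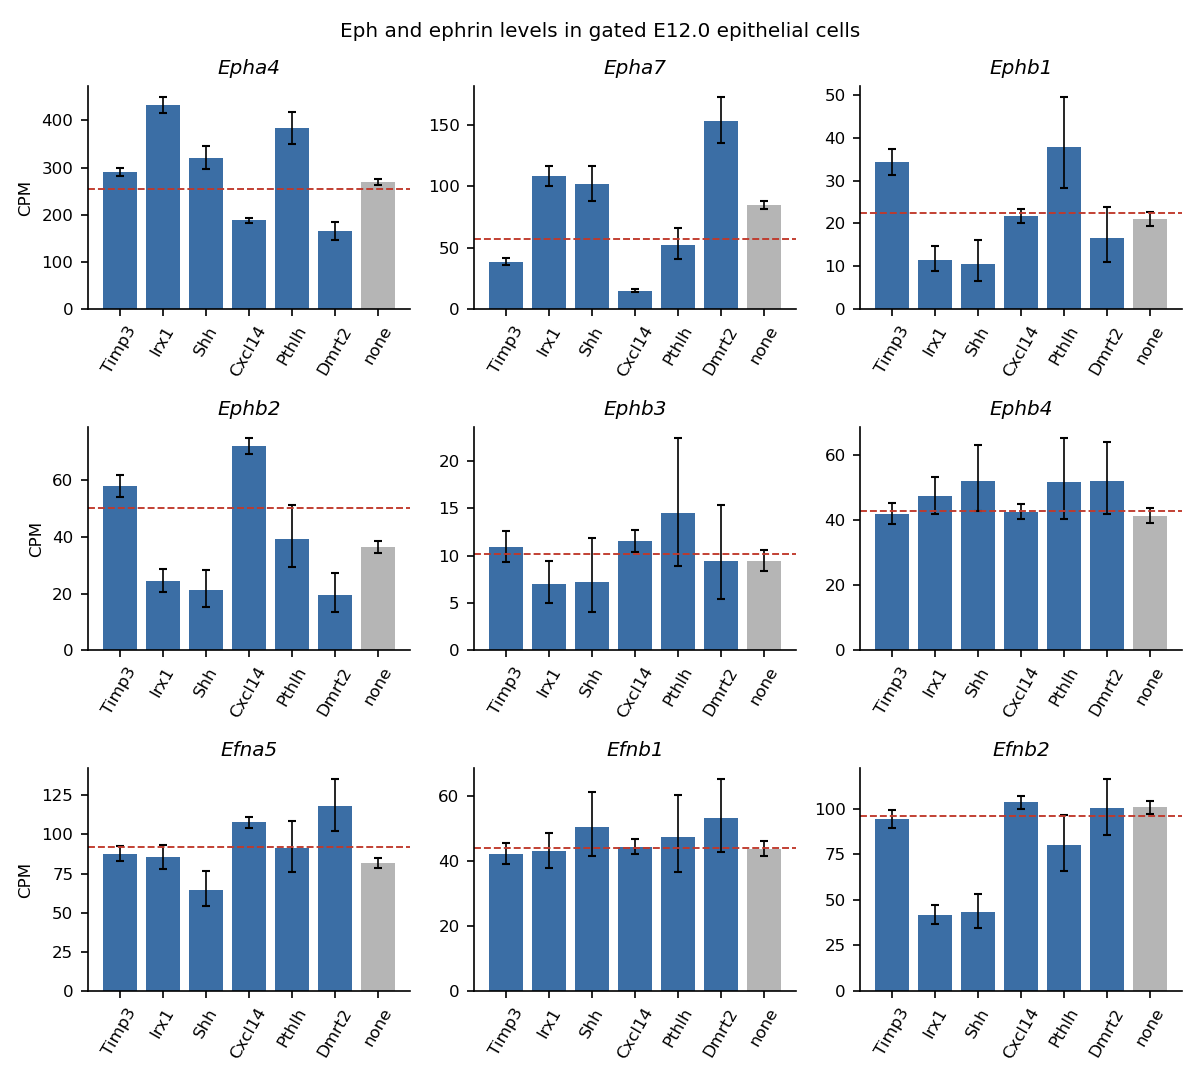
Level of each gene (CPM, linear axes from 0) in the cells of 6 gates and in cells of no gate at E12.0. Bars are 1 pooled library each with exact 95% counting intervals, and the dashed line is the level in all E12.0 cells. Epha4 peaks in Irx1 cells at 433 CPM, Epha7 in Dmrt2 cells at 153 CPM and Ephb2 in Cxcl14 cells at 72.2 CPM, while Ephb4 and Efnb1 stay between 41.8 and 53.1 CPM in the 6 gates.

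Epha4 (ENSMUSG00000026235, chromosome 1, 77367185 to 77515088, minus strand, GRCm38) encodes the receptor of broadest ligand choice in the family, taking both A-type and B-type ephrins. Its level was 433 CPM in Irx1 cells, 383 CPM in Pthlh cells, 320 CPM in Shh cells, 290 CPM in Timp3 cells, 188 CPM in Cxcl14 cells and 165 CPM in Dmrt2 cells. Each step in this order exceeded its counting interval when the cells shared by the neighbouring gates were left out. The cells left out differed from step to step. Timp3 cells outside the Cxcl14 gate had 366 CPM, above Shh cells. The place of Timp3 cells in the order thus depended on the cells shared with the Cxcl14 gate. As averages over a gate, the dental Irx1 cells were therefore at the top and the Cxcl14 and Dmrt2 cells at the bottom. The Cxcl14 average does not hold for all cells of that gate. In a cell group described below, with 98.1% of its cells in the gate, Epha4 was at 82.5 CPM. Against all other E12.0 cells, the log2 ratio was 0.86 (0.80 to 0.92) in Irx1 cells and -0.68 (-0.72 to -0.63) in Cxcl14 cells. It was 0.61 (0.48 to 0.73) in Pthlh cells and -0.63 (-0.81 to -0.46) in Dmrt2 cells. The calls in Cxcl14, Pthlh and Dmrt2 cells were close to the size rule, and with a lower UMI threshold for the gate they became -0.57, 0.41 and -0.52. The Cxcl14 value was -0.26 in cells with at most 5% mitochondrial UMIs. The Pthlh value was 0.39 with a higher threshold and 0.57 after thinning, and the Dmrt2 value was -0.50 with a higher threshold and -0.40 in cells from female embryos, recognised by Xist and no Y-linked transcript. After every cell was thinned to 4000 UMIs, 73.6% of Irx1 cells and 42.1% of Cxcl14 cells still had an Epha4 transcript.

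Epha7 (ENSMUSG00000028289, chromosome 4, 28813131 to 28967499, plus strand), a receptor for A-type ephrins, had the widest range of the 9 genes. It stood at 153 CPM in Dmrt2 cells, 108 CPM in Irx1 cells, 102 CPM in Shh cells, 52.4 CPM in Pthlh cells, 38.7 CPM in Timp3 cells and 15.0 CPM in Cxcl14 cells. This is a range of 10.2-fold, and 97.7% of the 9531 genes with at least 10 CPM in a gate had a smaller one. The level was thus high behind and within the dental zone and low in front of it. Irx1 and Shh cells could not be told apart (0.18, -0.07 to 0.44), and the other neighbours in the order differed beyond their intervals. Dmrt2 cells were 2.81-fold (2.47 to 3.18) above the other cells, and the log2 ratio was 1.04 (0.92 to 1.16) in Irx1 cells and -2.53 (-2.67 to -2.39) in Cxcl14 cells. In thinned cells an Epha7 transcript was found in 46.8% of Dmrt2 cells and 4.60% of Cxcl14 cells. The ratio in Timp3 cells, -0.67 (-0.79 to -0.54), was -0.08 when cells of several gates were left out. Timp3 cells that also passed the Cxcl14 gate had 16.1 CPM of Epha7, and the other Timp3 cells 61.9 CPM. The latter is above the 52.4 CPM of Pthlh cells, so the place of Timp3 cells in the order depended on these shared cells. The higher level in Shh cells, 0.87 (0.66 to 1.07), became 0.37 in the 79 Shh cells with at most 5% mitochondrial UMIs and 0.55 in cells from female embryos.

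Ephb1 (ENSMUSG00000032537, chromosome 9, 101922128 to 102354693, minus strand), a receptor for B-type ephrins, was a low-level gene with a different order. Its level was 37.9 CPM in Pthlh cells, 34.3 CPM in Timp3 cells, 21.8 CPM in Cxcl14 cells, 16.5 CPM in Dmrt2 cells, 11.6 CPM in Irx1 cells and 10.6 CPM in Shh cells. Only the step from Timp3 to Cxcl14 cells exceeded its interval, with 1.05 (0.84 to 1.26) on the log2 scale. The order among Cxcl14, Dmrt2, Irx1 and Shh cells was not resolved step by step. The log2 ratio to the other cells was 0.81 (0.66 to 0.95) in Timp3 cells, 0.77 (0.34 to 1.16) in Pthlh cells, -1.02 (-1.39 to -0.67) in Irx1 cells and -1.11 (-1.79 to -0.51) in Shh cells. Just 52 UMIs lay behind the Pthlh value, which was 0.40 with a gate of 3 UMIs and 0.53 in cells with at most 5% mitochondrial UMIs. The Timp3 value was 0.58 in cells from female embryos, just under the size rule. Within the Irx1 gate, cells that also carried Timp3 had 21.7 CPM and those without it 8.7 CPM of Ephb1, a log2 difference of 1.32 (0.57 to 2.05).

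Ephb2 (ENSMUSG00000028664, chromosome 4, 136647539 to 136835988, minus strand) encodes a receptor for B-type ephrins that can also take ephrin-A5. It was at 72.2 CPM in Cxcl14 cells, 57.9 CPM in Timp3 cells, 39.3 CPM in Pthlh cells, 24.3 CPM in Irx1 cells, 21.2 CPM in Shh cells and 19.5 CPM in Dmrt2 cells. The first 3 steps exceeded their intervals and the last 3 gates could not be ordered. Among the gates, Cxcl14 cells were thus at the top, though a cell group described below, mostly outside that gate, was higher. Irx1, Shh and Dmrt2 cells, the 3 gates highest in Epha7, were at the bottom. The log2 ratio to the other cells was 1.07 (0.97 to 1.16) in Cxcl14 cells, -1.11 (-1.36 to -0.86) in Irx1 cells, -1.27 (-1.73 to -0.84) in Shh cells and -1.38 (-1.93 to -0.89) in Dmrt2 cells. In the Shh cells with at most 5% mitochondrial UMIs it was -0.51. Timp3 cells that also passed the Cxcl14 gate had 73.5 CPM of Ephb2, near the 71.8 CPM of Cxcl14 cells without Timp3. Timp3 cells outside the Cxcl14 gate had 41.9 CPM, near the 39.3 CPM of Pthlh cells. The step between Timp3 and Pthlh cells thus depended on the cells shared with the Cxcl14 gate.

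Ephb3 and Ephb4, the other 2 receptors for B-type ephrins, showed no zone past the size rule. Ephb3 (ENSMUSG00000005958, chromosome 16, 21204755 to 21223305, plus strand) ranged from 6.97 CPM in Irx1 cells to 14.6 CPM in Pthlh cells, and no neighbouring gates in its order differed beyond their intervals. At this level the gates of fewest cells held 15 to 20 UMIs, too few to detect a change of 1.5-fold. Its log2 ratio in Irx1 cells was -0.575 (-1.07 to -0.12), just short of the size rule. Ephb4 (ENSMUSG00000029710, chromosome 5, 137350109 to 137378669, plus strand), known from veins, ranged from 41.8 CPM in Timp3 cells to 52.0 CPM in Shh cells. Of all genes, 22.3% had a smaller range over the gates than the 1.24-fold of Ephb4. Neighbouring gates could not be told apart for it.

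**Figure D2:**
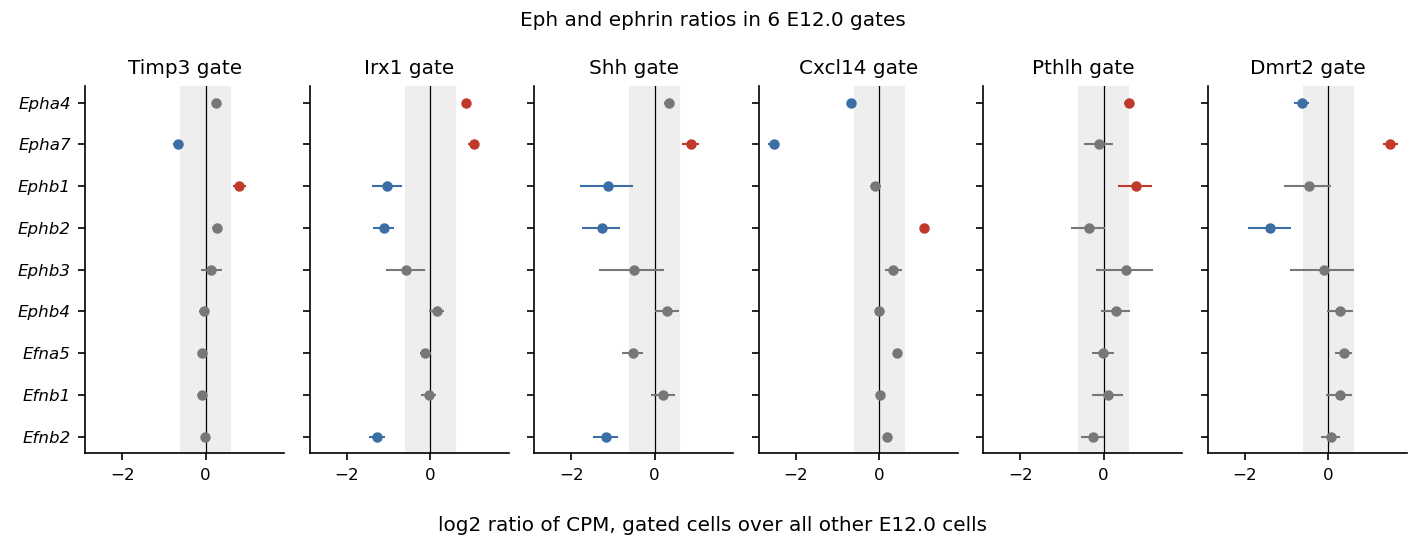
Log2 ratio of CPM between the cells of each gate and all other E12.0 cells, with exact 95% counting intervals. Red points were higher and blue points lower by the size rule, and the grey band marks ratios under 1.5-fold. In Irx1 cells Epha4 (0.86) and Epha7 (1.04) lie to the right and Ephb1 (-1.02), Ephb2 (-1.11) and Efnb2 (-1.26) to the left.

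Among the ligands, Efnb2 (ENSMUSG00000001300, chromosome 8, 8617434 to 8661242, minus strand), the B-type ephrin known from arteries, was the gene with zones past the size rule. It stood at 104 CPM in Cxcl14 cells, 100.3 CPM in Dmrt2 cells, 94.5 CPM in Timp3 cells, 80.1 CPM in Pthlh cells, 43.3 CPM in Shh cells and 41.8 CPM in Irx1 cells. The dental gates were low and the cells on both sides of the tooth were high, with a gap between the Pthlh and Shh gates of 0.92 (0.50 to 1.34) on the log2 scale. The log2 ratio to the other cells was -1.26 (-1.45 to -1.08) in Irx1 cells and -1.17 (-1.48 to -0.87) in Shh cells, and both stayed past the size rule under every alternative that was tried. An Efnb2 transcript was found in 13.9% of thinned Irx1 cells and in 31.5% of the cells outside this gate. Irx1 cells without Timp3 had 35.2 CPM and those with it 65.2 CPM.

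Efna5 (ENSMUSG00000048915, chromosome 17, 62604184 to 62881317, minus strand), an A-type ephrin, ranged from 64.5 CPM in Shh cells to 118 CPM in Dmrt2 cells. Its log2 ratio was 0.42 (0.35 to 0.49) in Cxcl14 cells and -0.52 (-0.78 to -0.27) in Shh cells, both short of the size rule. Efnb1 (ENSMUSG00000031217, chromosome X, 99136130 to 99148991, plus strand), the X-linked B-type ephrin, lay between 42.0 CPM in Timp3 cells and 53.1 CPM in Dmrt2 cells. No neighbouring gates differed for Efnb1, and in cells from female and male embryos its levels were 44.3 and 44.9 CPM.

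Ephb1, Ephb2 and Efnb2 were all lower in Irx1 and Shh cells. Of these, the promoters of Ephb2 and Efnb2, a receptor and a ligand it can bind, are shown side by side. The 250 bases before the transcription start were taken from RefSeq for GRCm38.p6, on the minus strand for both, at chr4:136836013-136836262 and chr8:8661243-8661492. Capitals mark the GC box GGGCGG on either strand.
Ephb2: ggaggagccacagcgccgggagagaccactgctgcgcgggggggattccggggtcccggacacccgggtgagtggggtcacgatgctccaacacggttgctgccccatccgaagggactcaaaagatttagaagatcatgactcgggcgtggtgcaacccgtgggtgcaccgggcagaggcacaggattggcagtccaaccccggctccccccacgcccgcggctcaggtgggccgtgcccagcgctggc
Efnb2: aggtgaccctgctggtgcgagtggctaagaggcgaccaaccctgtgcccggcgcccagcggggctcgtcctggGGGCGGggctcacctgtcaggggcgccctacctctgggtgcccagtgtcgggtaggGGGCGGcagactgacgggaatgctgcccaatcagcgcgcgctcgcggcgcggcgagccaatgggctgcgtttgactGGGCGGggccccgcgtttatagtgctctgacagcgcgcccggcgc
The GC box was found 3 times in the Efnb2 window and 0 times in the Ephb2 window. It was present before 6 of the 9 members (Efna5, Efnb2, Epha4, Epha7, Ephb3 and Ephb4) and in 32.7% of all 32851 promoter windows of this length. The motif CTTTGA of TCF and LEF factors and the core ACCACCC of GLI factors, searched on both strands, were found before 0 of the 9 members and in 13.8% and 3.92% of all windows. A member was counted when any of its windows held the motif, whereas the shares are of single windows. The member counts and these shares are therefore unlike measures. The members' windows had 54% to 74.8% G and C, against a median of 52.4% over all windows.

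Timp3 and Cxcl14 cells shared many cells but differed once these were set apart. In the 1048 Timp3 cells outside the Cxcl14 gate, Epha4 was at 366 CPM, Epha7 at 61.9 CPM and Ephb1 at 40.9 CPM. In the 3512 Cxcl14 cells outside the Timp3 gate, the same genes were at 179, 14.7 and 19.8 CPM. The log2 differences were 1.04 (0.97 to 1.10), 2.08 (1.88 to 2.28) and 1.05 (0.84 to 1.26). Ephb2, Efna5 and Efnb2 went the other way, by -0.78 (-0.95 to -0.60), -0.65 (-0.78 to -0.51) and -0.29 (-0.41 to -0.16), the last short of the size rule. For Ephb3, Ephb4 and Efnb1 the interval of the difference included 0. Shh cells with a transcript of Foxa1 or Foxa2, which mark tongue epithelium, numbered just 24, and for all 9 members the interval of their difference from the other Shh cells included 0.

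Receptor and ligand transcripts were also counted in the same cell. With every cell thinned to 4000 UMIs, which left 10439 E12.0 cells, 75.7% (74.9 to 76.5) had a transcript of at least 1 of the 6 receptors and 58.5% of at least 1 of the 3 ephrins. At least 1 of each was found in 43.8%, close to the product of these 2 shares, and 9.56% had none of the 9. Cells with both made up 35.6% of Shh cells, 39.9% of Irx1 cells, 43.5% of Cxcl14 cells, 44.7% of Timp3 cells, 45.6% of Pthlh cells and 46.3% of Dmrt2 cells. Each of these was likewise close to the product of the receptor and ephrin shares of its gate. At least 2 receptors were found in 40.7% of Irx1 cells and 25.2% of Cxcl14 cells. Such shares count captured transcripts and fall below the share of cells that express a gene.

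For 13 fixed pairs of a receptor with an ephrin, the number of thinned cells with both transcripts was divided by the number expected from the 2 shares alone. The pairs were each Ephb receptor with Efnb1 and Efnb2, Epha4 and Epha7 with Efna5, Epha4 with Efnb1 and Efnb2, and Ephb2 with Efna5. How strongly the proteins of a pair bind was not considered. Ephb2 and Efnb2 were found together in 612 cells against 549 expected, a ratio of 1.11 (1.03 to 1.20), and Ephb3 and Efnb1 in 84 against 65.6, a ratio of 1.28 (1.02 to 1.58). Epha4 and Efnb2 were found together in 1524 cells against 1644 expected, 0.93 (0.88 to 0.97), and Epha4 and Efna5 in 1520 against 1592, 0.95 (0.91 to 1.00). Thus 2 pairs were above 1, 2 below it and 9 had intervals that included 1. When each receptor was paired with every other gene of at least 10 CPM, 3.88% of the pairs were above 1 and 3.52% below it. Within each of the 6 gates, 0 of 13 pairs were above or below 1, where 0.313% to 1.64% of all such pairs were above and 0.142% to 1.3% below. These calls depend on an interval that takes the expected number as fixed, and no other interval was tried. They do not show that the genes of a pair were independent within a gate. The ratios depended on depth: without thinning 11 pairs were above 1, and with thinning to 6000 UMIs 1 pair. Ephb3 and Efnb1 were then at 0.92, and Epha4 and Efna5 were at 1.02 without thinning. Ephb2 with Efnb2 was 1.08 to 1.44 under the 5 alternatives and Epha4 with Efnb2 0.93 to 0.99.

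**Figure D3:**
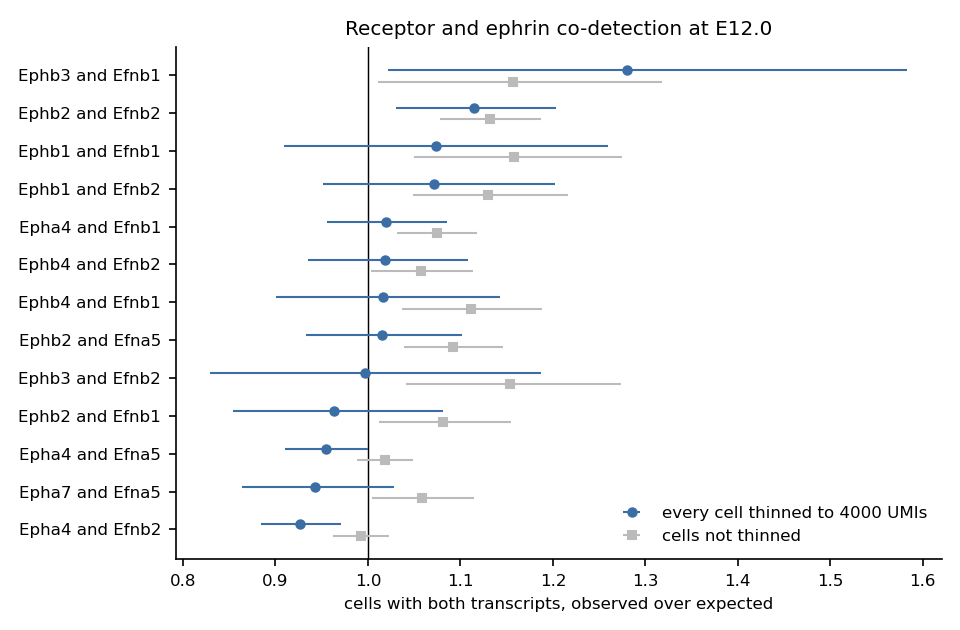
Number of E12.0 cells with transcripts of both genes of a pair over the number expected from the 2 shares. Circles are cells thinned to 4000 UMIs (10439 cells) and squares are all cells without thinning (11355 cells). The 95% intervals are those of the joint share, with the expected number taken as fixed. A ratio of 1 is marked. Ephb2 and Efnb2 lie above it in both (1.11 and 1.13), and Epha4 and Efnb2 lie below it in both (0.93 and 0.99), the latter with an interval that includes 1.

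The pattern of each member was also followed over 20 groups of 131 to 1160 E12.0 cells, formed by k-means clustering without the Eph, ephrin, partner and gate genes. Epha7 ranged from 7.37 to 143 CPM over these groups, Ephb1 from 4.13 to 59.4 CPM, Epha4 from 82.5 to 504 CPM, Ephb2 from 14.4 to 104 CPM and Efnb2 from 32.1 to 185 CPM. Ephb4 ranged from 38.2 to 57.9 CPM. Epha4 differed between groups rich in Cxcl14 cells. Its log2 of CPM plus 5 was 6.45 in a group with 98.1% of its 887 cells in the Cxcl14 gate. It was 7.68 in a group with 86.8% of its 1160 cells in that gate. In a group with 52.9% of its 763 cells in that gate it was 8.64. The level in the gated cells alone was not taken within these groups. The group highest in Epha4 was led by Tgfb2, Irx1 and Dsc3, and that highest in Epha7 by Barx1, Dmrt2 and Rprm. The Irx1 gate held 27.1% of the former group and the Dmrt2 gate 10.8% of the latter. Most cells of these groups were thus among the other cells in the ratios of those gates. The group highest in Ephb1 was led by Cntn2, Flt1 and Pthlh, and that highest in Efnb2 by Pax9, Fndc1 and Barx2. Ephb2 was highest in a group of 154 cells led by Nebl, Krt6a and Rhov, of which 2.6% passed the Cxcl14 gate. Nebl is a marker of the cluster in which the study placed periderm. The group highest in Ephb4 was led by Shh, and 94.7% of its 131 cells passed the Shh gate.

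Over the 20 groups, Pearson's r between log2 levels of members was lowest for Epha7 with Ephb2, at -0.87, and highest for Ephb2 with Ephb3, at 0.68. Ephb2 and Efnb2 had r of 0.53, and Epha4 and Ephb1 0.52. The points share 1 library, and r is given as a description. Among 10291 genes outside the family, the genes most like Epha4 included Kctd6 and Fam60a (r of 0.87 and 0.85). Epha7 was most like Foxp2, Ltbp1 and B4galt6 (0.94, 0.91 and 0.91), Ephb1 like Slit3, Cntn2 and Cpne5 (0.86, 0.85 and 0.84), and Ephb2 like Slc15a2, Piezo2 and Cdkn1c (0.90, 0.88 and 0.88). Efnb2 was most like Nr3c1, Fat2 and Krt15 (0.93, 0.90 and 0.88). Ephb3 was most like 1810030O07Rik, Esrra and Plxna3 (0.87, 0.84 and 0.82) and Ephb4 like Nfkb2, Shh and Ltb (0.86, 0.82 and 0.82). The likeness was lower for Efna5, led by Pik3cb, Ppp1r21 and Ghr (0.79, 0.78 and 0.78), and for Efnb1, led by Zfhx4, Slc39a13 and Mff (0.77, 0.76 and 0.75). The highest r among 10291 genes over 20 points is high even for unrelated genes. How high it would be by chance was not tested, so the lists do not show co-expression. Ephb4 varied little over the groups, with a standard deviation of log2 level of 0.136 against a median of 0.246 over all genes compared.

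The other genes of the family and the partners inside the cell were compared over the same gates. Of 13 other Eph and ephrin genes, 7 reached 10 CPM in each gate comparison and 0 or 1 met the size rule. Epha2, a receptor for A-type ephrins, was higher in Shh cells (26.5 against 15.8 CPM, 0.74, 0.32 to 1.13) and lower in Cxcl14 cells (-0.73, -0.91 to -0.56), and Efna1 was lower in Dmrt2 cells (38.4 against 68.4 CPM, -0.83, -1.21 to -0.48). Of 24 genes of Eph signalling, which include adaptors, Src kinases, exchange factors and the protease Adam10, 21 or 22 could be compared and 0 or 1 met the rule. The kinase gene Fyn was higher in Shh cells (1.04, 0.79 to 1.28) and lower in Cxcl14 cells (-0.62, -0.74 to -0.50), and the exchange factor gene Vav3 was higher in Dmrt2 cells (1.26, 0.71 to 1.76).

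At E9.5 cells were classed by 6 markers each of epithelium, mesenchyme and endothelium, with at least 3 of its own and at most 1 of each other list. This gave 2490 epithelium-like, 4966 mesenchyme-like and 256 endothelium-like cells and left 5032 unclassified. Markers not used for the classes followed them: Krt18 was at 747 CPM in epithelium-like, 34.3 CPM in mesenchyme-like and 16.6 CPM in endothelium-like cells, and Emcn at 1.7, 4.1 and 500.2 CPM. Transcripts of red cells were found in every class, Hbb-y at 260, 298 and 388 CPM, and a Twist1 transcript was found in 13.2% of epithelium-like cells, against 99.1% of mesenchyme-like cells. Low levels of a member in a class are therefore within reach of free RNA, whose part was not tested.

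The 9 genes differed in their class at E9.5. In epithelium-like cells 4 members were higher and 1 lower, with 14% and 5.67% of 8285 genes called in these directions. In mesenchyme-like cells 1 was higher and 3 lower, with 2.7% and 11.2% of 8083 genes. In endothelium-like cells 1 was higher and 5 lower, with 18% and 16.9% of 8424 genes. The 3 comparisons share their cells, since each class is part of the remainder for the others. Ephb1 and Ephb3 were under 10 CPM in every class and were not counted.

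Epha4 was at 36.3 CPM in epithelium-like, 11.7 CPM in mesenchyme-like and 4.54 CPM in endothelium-like cells, and Ephb2 at 29.0, 8.84 and 6.05 CPM. The epithelium thus held the highest level of both receptors, by 1.64 (1.51 to 1.76) and 1.71 (1.57 to 1.86) on the log2 scale against mesenchyme. Efna5 followed the same order, with 84.4, 38.0 and 11.5 CPM, and its ratio in mesenchyme-like cells to the remaining cells, -0.77 (-0.83 to -0.71), was -0.49 with a stricter class rule. Efnb2 was at 105 CPM in epithelium-like, 88.3 CPM in endothelium-like and 61.6 CPM in mesenchyme-like cells. Its ratio of epithelium to all other cells, 0.63 (0.57 to 0.69), was 0.55 with median-ratio scaling and 0.56 both with the stricter class rule and with no upper limit on genes per cell, all short of the size rule. Ephb1 was at 5.02 CPM in epithelium-like and 1.05 CPM in mesenchyme-like cells, and Ephb3 at 4.39 and 3.61 CPM.

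Epha7 was highest in the mesenchyme, with 15.1 CPM in mesenchyme-like, 7.69 CPM in epithelium-like and 2.12 CPM in endothelium-like cells. The mesenchyme was 0.86 (0.73 to 1.00) above the remaining cells on the log2 scale, and 0.52 with the stricter class rule. The ratio of epithelium-like cells to the rest was -0.69 (-0.89 to -0.49), and it was -0.51 after thinning, -0.45 in cells from female embryos and -0.37 with the stricter class rule. Epha7 was higher in mesenchyme-like cells with Hand2, a factor of the distal arch, at 25.7 CPM, than in those without it, at 14.0 CPM, a log2 difference of 0.87 (0.64 to 1.10). It was lower in mesenchyme-like cells with Sox10, a neural crest gene, at 5.19 against 16.3 CPM, -1.65 (-2.13 to -1.21). Epha4 and Ephb2 were also higher with Hand2, by 0.68 (0.40 to 0.95) and 0.61 (0.29 to 0.92). Ephb1, under 10 CPM, was at 3.62 against 0.776 CPM, with 27 and 55 UMIs.

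In endothelium-like cells 1 of the 7 members compared was higher, where 18% of all genes were. Ephb4 was at 30.2 CPM there, against 15.2 CPM in epithelium-like and 11.0 CPM in mesenchyme-like cells, 2.46-fold (1.99 to 3.01) above all other cells. Efnb1 was at 3.63 CPM against 22.5 and 22.2 CPM, and Efna5, Epha4, Epha7 and Ephb2 were also lower by the size rule. The lower levels rested on few UMIs, from 7 for Epha7 to 38 for Efna5. Efnb2 was not evenly spread among these cells. The 106 cells with at least 2 UMIs of artery genes (Dll4, Gja4, Gja5, Hey1) had 143 CPM (124 to 164) of Efnb2, and the 93 cells with vein genes (Nr2f2, Aplnr, Nrp2) and no artery transcript had 42.5 CPM (31.9 to 55.5). The log2 difference was 1.75 (1.31 to 2.21). Ephb4 was at 27.4 CPM in the artery cells and 37.0 CPM in the vein cells, -0.44 (-1.09 to 0.21), an interval that includes 0. The 3 vein genes were not particular to endothelium. They summed to 319 CPM in endothelium-like, 211 CPM in epithelium-like and 156 CPM in mesenchyme-like cells. The vein cells may thus hold other cells without artery transcripts. Whether Ephb4 differs between arteries and veins cannot be read from these values.

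**Figure D4:**
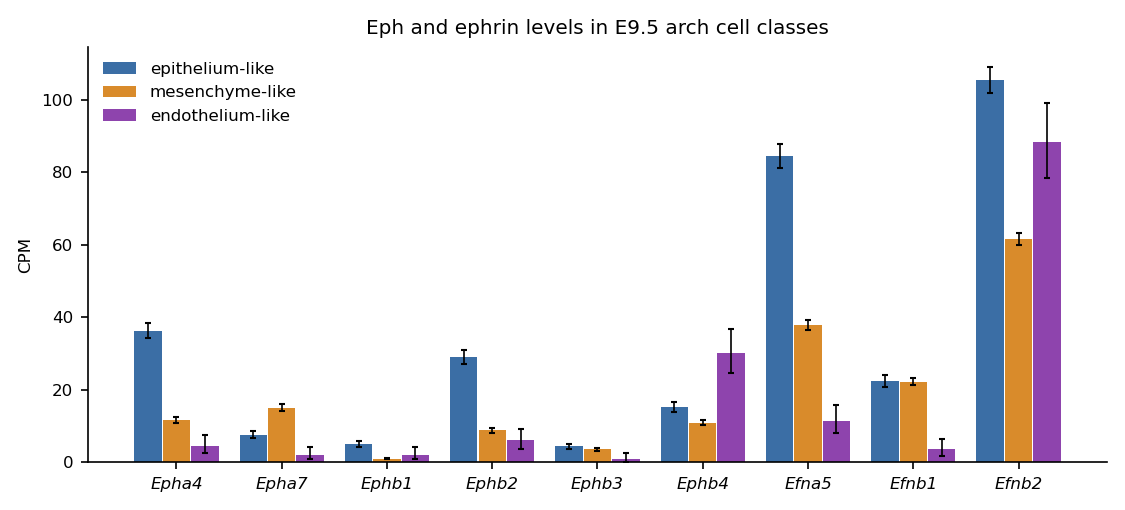
Level of each gene (CPM) in the 3 cell classes of the E9.5 arch library, with exact 95% counting intervals. Epha4, Ephb2 and Efna5 are highest in epithelium-like cells (36.3, 29.0 and 84.4 CPM), Epha7 in mesenchyme-like cells (15.1 CPM) and Ephb4 in endothelium-like cells (30.2 CPM).

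Receptor and ligand transcripts were also looked for in the same E9.5 cell, thinned as before. At least 1 of each was found in 18.0% of epithelium-like, 7.38% of mesenchyme-like and 4.55% of endothelium-like cells, and none of the 9 genes in 30.8%, 52.4% and 57.9%. In the same order, at least 1 receptor was found in 32.0%, 17.9% and 16.5%, and at least 1 ephrin in 55.2%, 37.1% and 30.2%. Over all E9.5 cells 4 of 13 pairs were above 1, with Epha4 and Efna5 at 1.41 (1.23 to 1.61), and 6.83% of the pairs of a receptor with any other gene were above 1. In epithelium-like cells 0 of 13 were above 1, against 1.15% of such pairs. In mesenchyme-like cells 2 were, against 2.29%, Ephb4 with Efnb1 (28 cells, 1.79, 1.19 to 2.58) and Epha4 with Efna5 (49 cells, 1.67, 1.23 to 2.20). The single pair above 1 in endothelium-like cells, against 0.346%, was Ephb3 with Efnb1 and rested on 1 cell.

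Few of the 13 other Eph and ephrin genes could be compared at E9.5. In epithelium-like cells 3 of 4 were higher and 0 lower, and in mesenchyme-like cells 1 of 4 was higher and 1 lower. In endothelium-like cells 1 of 3 was higher and 2 lower. The shares of all genes are those given below for the partners. Epha1 was higher in epithelium-like cells (11.2 against 2.24 CPM elsewhere, 2.32, 2.10 to 2.55). Epha3 was higher in mesenchyme-like cells (10.4 against 2.10 CPM, 2.30, 2.07 to 2.54). Efna1 was higher in endothelium-like cells (105 against 10.3 CPM, 3.35, 3.17 to 3.51). Of 19 signalling partners compared in epithelium-like cells 3 were higher and 1 lower, with 14% and 5.67% of all genes called in these directions. In mesenchyme-like cells 0 of 18 were higher and 2 lower, with 2.7% and 11.2% of all genes. In endothelium-like cells 10 of 19 were higher and 1 lower, with 18% and 16.9% of all genes. The largest of these 10 were Arhgef15 (90.7 against 4.57 CPM) and Vav3 (67.7 against 4.19 CPM), both of which encode exchange factors.

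Between the 2 libraries 7 of the 9 members were higher in E12.0 epithelium than in E9.5 epithelium-like cells and 0 were lower, with 33.2% and 15.9% of the 9108 genes compared called in these directions. The median gene was itself higher at E12.0 by 0.21 on the log2 scale. The median log2 ratio of the members was 1.20. All 6 receptors were among the 7. Epha7 went from 7.69 to 56.8 CPM, a log2 ratio of 2.88 (2.69 to 3.08), and Epha4 from 36.3 to 254 CPM, 2.80 (2.72 to 2.89). Ephb1 went from 5.02 to 22.6 CPM, 2.17 (1.93 to 2.42), Ephb4 from 15.2 to 42.6 CPM, 1.49 (1.35 to 1.63), and Ephb3 from 4.39 to 10.1 CPM, 1.20 (0.94 to 1.48). Ephb2 went from 29.0 to 50.2 CPM, 0.79 (0.69 to 0.90), which was 0.58 with median-ratio scaling and 0.46 in cells with at most 5% mitochondrial UMIs, both short of the size rule. Among the ligands, Efnb1 went from 22.5 to 44.1 CPM, 0.97 (0.85 to 1.09), whereas Efna5 was at 84.4 and 91.8 CPM, 0.12 (0.06 to 0.19), and Efnb2 at 105 and 95.9 CPM, -0.14 (-0.20 to -0.08). Of the other Eph and ephrin genes 5 of 7 compared were higher and 0 lower, and of the partners 11 of 21 were higher and 2 lower. Stage cannot be told apart from the sort for K14Cre-positive cells, the dissociation, the version of the counting software and the embryos, since each library had its own. Mitochondrial UMIs had a median share of 5.50% in the E12.0 library and 1.54% in the other.

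**Figure D5:**
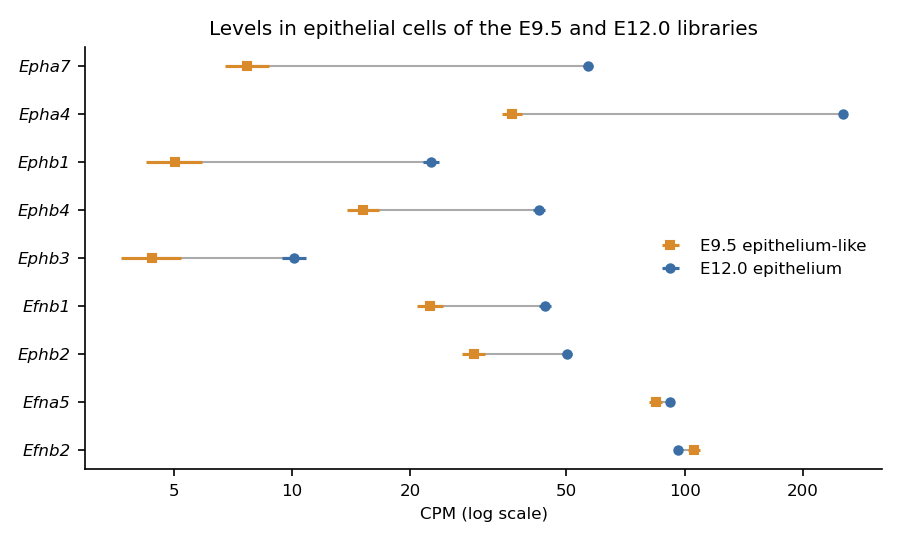
Level of each gene (CPM, log axis) in E9.5 epithelium-like cells (squares) and in all E12.0 cells (circles), with exact 95% counting intervals, ordered by the ratio. Epha7 and Epha4 are farthest apart (7.69 and 56.8 CPM, 36.3 and 254 CPM), and Efna5 and Efnb2 lie close together.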

How the data were processed

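Single cell libraries made with 10x Genomics 3' (V3) chemistry were analysed, 1 of 6 and 1 of 8 pooled embryos. The authors deposited UMI counts per gene and barcode, not normalized, aligned to mm10 (GRCm38). The submitters' processing notes name Cell Ranger 2.0.0, whereas the file headers carry 3.1.0 (E12.0) and 6.1.2 (E9.5). Cells with 200 to 5500 genes and at most 10% mitochondrial UMIs were kept, as in the study's methods. This left 11355 cells with 77936364 UMIs at E12.0 and 12744 with 166191431 at E9.5. The cell total given in the study's methods lies below the kept number at E12.0 and above it at E9.5. Doublets were called with Scrublet (scanpy 1.11.5, seed 1) in 5.82% and 2.60% of cells and were left in, with their removal as an alternative.

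UMIs were summed per group and scaled to CPM. Ratios carry exact 95% intervals from the binomial split of the counts, and levels exact Poisson intervals. A sum of 0 was set to 3 counts for a ratio. No test across samples was possible with 1 library per stage. Co-detection used cells thinned to 4000 UMIs (916 shallower E12.0 cells were left out, 1715 at E9.5) and the Clopper-Pearson interval. Named genes were all members, the listed partners by the size rule, and the 3 genes most like each member over k-means groups (scikit-learn 1.9.0, 2000 variable genes, 30 principal components, log2 of CPM plus 5). The size rule and the interval of a ratio were tried on simulated Poisson counts for the Irx1 gate alone. Of 200 genes changed 2-fold, 94% had an interval that held the true fold. The draws follow the model of the interval, and the other steps were not simulated. The members, lists and rules were chosen with earlier results of these data known. The comparison of promoters and the search of motifs were chosen after the values were seen. For Epha4, 1 of the 3 most like genes is not reported here.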

Additional observations from a re-analysis of the deposited data

Results flagged for a closer look

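Efnb1 stood at 25.9 CPM (24.5 to 27.2) in the 5032 E9.5 cells that were put in no class, above the intervals of all 3 classes, of which epithelium-like cells were highest at 22.5 CPM (20.8 to 24.2). These cells were not part of any class. Their summed level of 4 red-cell genes was 5165 CPM, against 548 to 706 CPM in the classes. The part of either in the Efnb1 level was not tested.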

How the results depend on the processing

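Each member ratio past the size rule had 12 to 15 alternatives that changed its value. Under every one, 41 of 41 such ratios kept their sign, and 28 of them also their call. The alternatives reuse the same cells, so a kept sign is not independent support. With a rule of 2-fold, 0 members were past it in Timp3 and Pthlh cells and 2 each in E9.5 epithelium-like and mesenchyme-like cells. With at least 4 own markers and no others, these 2 classes had 3 and 2. The share of all genes called under each alternative is not given, so these counts and the following ones describe the members alone. The Pthlh gate was the least settled: 4 members were past the rule without called doublets, in cells from female embryos and in cells of 1 gate, and 1 with at most 5% mitochondrial UMIs and with gates of 1 or 3 UMIs. In Timp3 cells 1 member was past it in cells from female embryos and in cells of 1 gate, and in Shh cells 2 with at most 5% mitochondrial UMIs, where 79 cells remained. Pairs co-detected above expectation numbered 2, but 11 without thinning, 8 with both genes at 2 UMIs or more and no thinning, 7 in cells of at least 4000 UMIs without thinning (chosen after the data were seen) and 1 at 6000 UMIs. Epha4 with Efna5, below 1 in the report, was 1.02, 1.08 and 1.00 under these 3 settings without thinning, in the order given, and Ephb3 with Efnb1 was 0.92 at 6000 UMIs. Thinning removes the differences in depth between cells that these settings keep. Depth limits Ephb3 at E12.0, with 15 UMIs in Shh cells, Ephb1 and Ephb3 at E9.5, and the endothelium-like class, with 256 cells. No paired analysis was possible because each stage has 1 library.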

Other observations

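The E9.5 epithelium-like cells were also split by regional genes. Cells with Vgll2, an oral gene, had 29.9 CPM of Epha4 and 73.9 CPM of Efna5, and cells without it had 42.2 and 94.1 CPM, log2 differences of -0.50 (-0.68 to -0.32) and -0.35 (-0.46 to -0.23). Epha7 went the other way, with 9.23 and 6.28 CPM (0.56, 0.17 to 0.95). In the 217 cells with Sfn, a gene of the periderm, Epha4 was at 50.8 CPM against 34.8 CPM (0.55, 0.29 to 0.80), Epha7 at 3.43 against 8.15 CPM (-1.25, -2.33 to -0.34) and Ephb1 at 8.24 against 4.68 CPM (0.82, 0.12 to 1.45). The 209 cells with Foxa2 or Pax1, genes of the endoderm, had 32.9 CPM of Efnb1 against 21.4 CPM (0.62, 0.29 to 0.94) and 62.4 CPM of Efna5 against 86.7 CPM (-0.48, -0.70 to -0.26). Ephb1 was at 2.43 CPM there with 7 UMIs, against 5.29 CPM (-1.13, -2.47 to -0.05). Of the 29 cells with Tfap2b, 0 had an Epha7 UMI. At their depth 3 UMIs are 7.93 CPM, and the exact interval of the level reaches 9.75 CPM.

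Embryos of both sexes were pooled. All 34 member ratios past the size rule within a library had the same sign in cells with Xist and in cells with Y-linked transcripts. Both sets are parts of the cells in which the 34 ratios were picked by size. The shared sign was therefore largely set in advance and is a description, not independent support. Over all E9.5 cells, Epha7 was lower in the Xist cells, at 10.5 against 13.9 CPM (-0.40, -0.56 to -0.25), short of the size rule. The level of Epha7 differed between cell classes, and the mix of classes in the Xist and Y-linked cells was not compared.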
